A study of Mus musculus with 62 samples.

Results

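The genes described here are 39 autophagy and lysosome genes, taken by symbol from a table of 47643 gene symbols measured in mouse liver, and all 39 were present in it. They comprise 23 genes of the autophagy machinery, 10 lysosomal acid hydrolases, 2 transcription factors of lysosomal genes, 2 lysosomal membrane glycoproteins and 2 cholesterol exporters. Liver RNA was sequenced from female mice, given as 2 months of age, after injection of cachectic melanoma cells (CAC), of non-cachectic melanoma cells (NCAC) or of no tumour cells (mock-injected controls, Con). Cachexia is the wasting of muscle and fat that accompanies some tumours. The livers were collected at 2, 4, 6 and 8 weeks, with 5 animals in each arm and week except for 7 in CAC at 8 weeks, which gave 62 libraries. No genetic change or drug is named for any group. The labels describe the mice as C57BL/6J, whereas the series design names NCI Ath/nude animals, and an extraction protocol refers to a lung carcinoma (LLC) line that forms no group, so the host strain is uncertain. Neither melanoma line is named, so each tumour arm stands for 1 unnamed cell preparation. The values are TPM, an abundance scaled to transcript length and to the total of the library, and the read depth of each library is unknown.

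Macroautophagy encloses cytoplasm in a double-membrane autophagosome, which then fuses with the lysosome, where acid hydrolases digest the content. The ULK kinases start the process, the Beclin phosphoinositide kinase marks the membrane, ATG9 and ATG2 supply its lipid, and a conjugation cascade attaches the ATG8 proteins (the LC3 and GABARAP families) to the growing membrane. In the liver the pathway is known for turning over protein, mitochondria and lipid droplets in fasting. The transcription factors TFEB and TFE3 bind E-boxes in lysosomal and autophagy genes. Transcript levels measure neither autophagic flux nor enzyme activity.

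The promoter sequence of these genes is shown first, because the E-box CACGTG is the core of the element that TFEB and TFE3 recognise. RefSeq windows of the GRCm38.p6 build (mm10), from 250 bases before to 50 bases after a RefSeq start, were found for 32 of the 39 genes and not for Becn1, Atg12, Atg16l1, Map1lc3a, Ctsb, Ctsh or Npc1. CACGTG, which reads the same on both strands, was present in 10 of the 32 genes (31.2%), against 1062 of 9045 other tested genes (11.7%) and 7.15% of all 32851 windows. The 10 were Atg3, Atg5, Atg7, Atg14 and Bnip3 of the machinery, the hydrolases Ctsa, Ctsd, Ctsl and Gaa, and Lamp1. By class these were 5 of 19 machinery genes and 4 of 8 hydrolases with a window. The longer palindrome TCACGTGA, which contains CACGTG, was found in Atg3, Ctsa and Ctsd, or 9.38% of the 32 genes against 2.18% of the other tested genes. Stretches of 7 of these genes are printed 5′ to 3′ on the strand of the gene, with each CACGTG in capitals.
Lamp1 (chr8:13159088-13159163, plus strand): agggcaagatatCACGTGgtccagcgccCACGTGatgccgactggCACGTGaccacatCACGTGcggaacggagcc
Ctsl (chr13:64370739-64370768, minus strand): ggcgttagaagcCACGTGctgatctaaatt
Ctsd (chr7:142387908-142387937, minus strand): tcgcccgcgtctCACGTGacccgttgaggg
Ctsa (chr2:164833749-164833778, plus strand): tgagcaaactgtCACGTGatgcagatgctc
Gaa (chr11:119267811-119267840, plus strand): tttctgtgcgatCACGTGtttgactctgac
Atg7 (chr6:114670952-114670981, plus strand): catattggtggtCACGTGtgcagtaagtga
Atg3 (chr16:45158723-45158775, plus strand): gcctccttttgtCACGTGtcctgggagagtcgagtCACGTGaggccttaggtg
Lamp1 carried 4 copies, the first starting 61 bases and the last 15 bases before the RefSeq start. The stretches of Ctsl, Ctsd, Ctsa and Atg7 lie inside the span that GENCODE vM21 gives to the gene, since its annotated start lies further upstream than the RefSeq start used. The box of Atg14, not printed, also lies inside its gene, at 47568418-47568447 with the GENCODE start at 47570649. For Atg7 the GENCODE start is at 114643097, far from the stretch, which thus lies at an internal RefSeq start. These genes are counted among the 10. A match is a description of the letters and not a measured binding site.

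Some libraries held transcripts of other tissues. At least 100 TPM of Ctrb1, a pancreatic chymotrypsinogen, were found in 9 libraries, among them 2 of the 5 Con livers at 8 weeks (replicates 2 and 4), and muscle Acta1 alone reached 10 TPM in 3 more. Hepatocyte markers were abundant in every 8-week library, with a summed level of 105934 to 131940 TPM in CAC, 94408 to 133584 in NCAC and 112689 to 130854 in Con. The 12 markers of Kupffer cells and macrophages, which are rich in lysosomes, summed to 206 to 767 TPM in CAC livers, 311 to 481 in NCAC livers and 576 to 784 in Con livers at 8 weeks, and 7 of the 12 fell in CAC livers relative to Con. The 10 neutrophil markers summed to 59.4 to 156 TPM in CAC livers, 13.1 to 18.5 in NCAC livers and 11.3 to 34 in Con livers, with 3 of the 5 tested higher in CAC than in Con. Of all genes 5.87% were called higher and 35.3% lower in that comparison. Other cell lists moved as well. Of 8 sinusoidal endothelial markers 4 were higher and 1 lower, and 7 of 7 B and plasma cell markers tested were lower. Of 7 stellate cell markers 0 were called. None of the Kupffer or neutrophil markers was at 0 in every library of a group. The part of these cells in the results below was not tested, and in bulk liver RNA fewer cells of a type and less RNA per cell cannot be told apart.

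In the 20 Con livers a few lysosomal genes and ATG8 genes were the most abundant per length, and levels within each class spread widely. Ctsl, the cysteine protease cathepsin L, led with a mean of 615 TPM (446 to 873), followed by the membrane glycoprotein Lamp1 at 583 TPM (525 to 661). Gabarapl1 was the highest ATG8 gene at 364 TPM (283 to 428), while Map1lc3b, which encodes LC3B, stood at 38.5 TPM (29.9 to 45.2). The initiating kinase Ulk1 averaged 26.8 TPM, between the lysosomal Gaa at 30.9 and Npc1 at 24.7 TPM, and the transcription factors Tfe3 and Tfeb were lowest at 4.51 and 2.70 TPM. Every one of the 39 genes was detected in every one of the 62 libraries, the lowest value being 1.09 TPM for Tfeb, and all 39 passed the filter of at least 1 TPM in at least 5 libraries. Becn1, Lamp1 and Atg4b varied least among the Con livers, with a highest-to-lowest ratio of 1.24 to 1.26, and Ulk1, Ulk2 and Bnip3 most, with ratios of 3.07 to 3.08.

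At 8 weeks the CAC liver showed changes of single genes in opposite directions. Compared with Con, 4 genes were higher, the cathepsins Ctsl and Ctsc and the autophagy genes Map1lc3b and Wipi1, and 13 of 39 were lower, among them Gabarapl1, Sqstm1, Lipa, Atg7 and Atg9a. These calls are limma adjusted p-values under 0.05 over 12160 genes, on differences of log2(TPM + 1) given with their standard error. Of all genes tested, 5.87% were called higher and 35.3% lower in the same comparison, and the median of all genes was -0.21, so the 13 of 39 called lower are near the background share. After median-of-ratios rescaling, which brings the median of all genes to 0.00, 8 of the 39 were higher and 7 lower, against 12.8% and 13.9% of all genes. The 4 higher genes remained higher and 7 of the 13 lower genes (Atg9a, Wipi2, Atg7, Gabarapl1, Sqstm1, Tfeb and Lipa) remained lower after rescaling. The other 6 (Becn1, Atg4b, Map1lc3a, Gabarapl2, Ctsb and Gaa) were lower only as deposited, whereas Atg16l1, Bnip3, Lamp1 and Ctsa were higher only after rescaling, and 18 were called on neither scale. Without the libraries holding pancreatic transcripts the counts were 4 higher and 18 lower, and the shares of all genes in that fit are not given here. In the GENCODE annotation of mm10 the leading genes lie apart, Ctsl at chr13:64359337-64370890 and Lipa at chr19:34492318-34527474 on the minus strand, and Ctsc at chr7:88278085-88310888, Map1lc3b at chr8:121590361-121598760 and Gabarapl1 at chr6:129533160-129542346 on the plus strand.

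**Figure D1:**
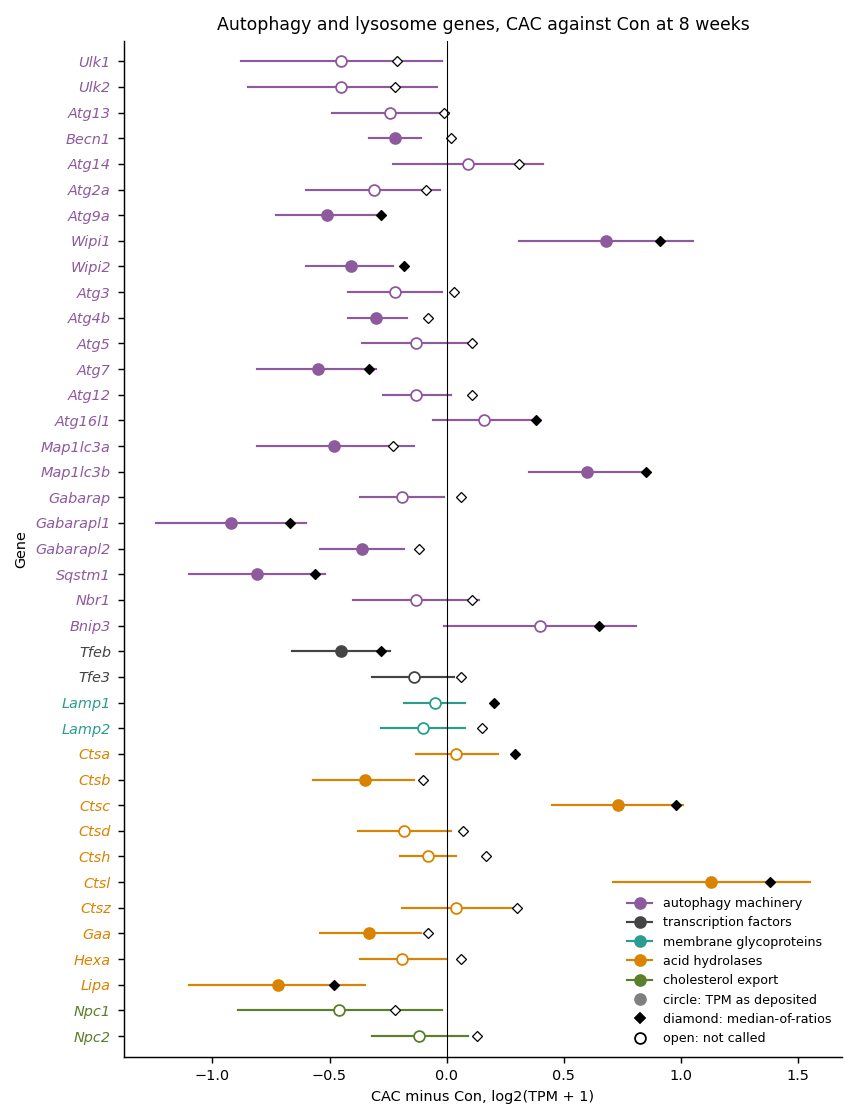
CAC minus Con at 8 weeks for the 39 genes (x axis, log2(TPM + 1) difference; one gene a row, coloured by class), with circles and 95% intervals for TPM as deposited and diamonds for median-of-ratios values, filled where called. Ctsl (1.13), Ctsc (0.73), Wipi1 (0.68) and Map1lc3b (0.60) lie to the right on both scales, and Gabarapl1 (-0.92) and Sqstm1 (-0.81) lie furthest to the left.

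Against Con, no change was called for the ULK kinases that start autophagy. Ulk1 ranged from 12.1 to 35.9 TPM with a median of 27.1 in the 7 CAC livers, and was 32.9, 26.7, 24.3, 28.4 and 42.5 TPM in NCAC livers and 43.9, 23.1, 47.0, 27.4 and 26.4 TPM in Con livers. The groups overlapped widely and the difference of CAC from Con was -0.45 ± 0.22 (limma adjusted p = 0.095). Ulk2 ranged from 7.49 to 12 TPM with a median of 9.34 in CAC livers, and was 14.4, 24.3, 12.6, 13.9 and 16.6 TPM in NCAC livers and 13.6, 8.06, 15, 14.7 and 17.8 TPM in Con livers. The CAC livers all lay below the NCAC livers but overlapped Con. Ulk2 differed from Con by -0.45 ± 0.21 (adjusted p = 0.0744), and from NCAC by -0.68 ± 0.21 (adjusted p = 0.00584, or 0.101 after rescaling at -0.40). Without the pancreatic libraries, which include the lowest Con value of both genes, Ulk1 was at -0.68 (adjusted p = 0.0332) and Ulk2 at -0.63 (adjusted p = 0.0107). Atg13, the ULK complex adaptor, was not called at -0.24 ± 0.13.

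The phosphoinositide kinase complex moved little. Becn1, its scaffold Beclin, ranged from 13.2 to 15.4 TPM with a median of 13.9 in CAC livers, against 17.0, 15.4, 16.4, 17.3 and 17.3 TPM in Con livers. The ranges met only at 15.4 TPM, and Becn1 was lower by -0.22 ± 0.06 (limma adjusted p = 0.00145), a size close to the median of all genes, and was at 0.02 after rescaling. Atg14, which targets the complex to autophagy, ranged from 5.82 to 12.9 TPM with a median of 8.89 in CAC livers, against 9.66, 5.61, 9.54, 8.05 and 8.27 TPM in Con livers, and was not called (0.09 ± 0.16).

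The genes that supply and mark the growing membrane went apart. Atg9a, whose product scrambles lipids between the membrane leaflets, ranged from 12.4 to 17.4 TPM with a median of 14.9 in CAC livers and was 28.4, 20.2, 23.9, 22.3 and 26.2 TPM in NCAC livers and 21.7, 19.6, 22.8, 21.2 and 22.3 TPM in Con livers. Every CAC liver lay below every liver of the other arms, and Atg9a fell by 0.51 on the log2 scale against Con (SE 0.11, limma adjusted p = 0.000215) and was at -0.28 after rescaling (adjusted p = 0.00755). Wipi2, a phosphoinositide-binding protein that recruits the conjugation machinery, behaved alike, at 10.5 to 14.8 TPM with a median of 13.1 in CAC livers, against 18.3, 15.8, 17.0, 17.5 and 16.7 TPM in Con livers. The groups did not overlap (-0.41 ± 0.09, adjusted p = 0.000402), and the rescaled difference was -0.18 (adjusted p = 0.0366). Its paralog Wipi1, named here after its values were seen, ranged from 5.73 to 27.5 TPM with a median of 10.8 in CAC livers and was 7.97, 5.74, 8.54, 6.68 and 8.44 TPM in NCAC livers and 8.13, 6.50, 6.13, 6.52 and 7.52 TPM in Con livers. The lowest CAC liver lay below all Con livers and the other 6 lay above them, for a difference of 0.68 ± 0.19 (adjusted p = 0.00314) and 0.91 after rescaling. Atg2a, a lipid-transfer protein, was not called at -0.31 ± 0.14.

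In the conjugation cascade the clearest member was Atg7, the E1-like enzyme that activates ATG8 and ATG12. It ranged from 5.73 to 8.35 TPM with a median of 6.62 in CAC livers and was 14.6, 11.2, 12.9, 9.26 and 11.9 TPM in NCAC livers and 10, 10.2, 11.9, 10.9 and 10.3 TPM in Con livers. All 7 CAC livers lay below the lowest liver of the other arms, and the difference from Con was -0.55 ± 0.13 (limma adjusted p = 0.000582), or -0.33 after rescaling (adjusted p = 0.0139). Atg4b, a protease that processes ATG8 proteins, ranged from 5.48 to 6.38 TPM with a median of 5.93 in CAC livers, against 7.82, 7.21, 7.68, 7.51 and 7.06 TPM in Con livers. The 2 groups did not overlap (-0.30 ± 0.06, adjusted p = 0.000194), but the rescaled difference was -0.08 (adjusted p = 0.214). Atg3, Atg5 and Atg12 were not called on either scale, with differences of -0.22, -0.13 and -0.13, and Atg16l1 was at 0.16 as deposited and 0.38 after rescaling (adjusted p = 0.00968).

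Within the ATG8 family, whose members are alternative tags of the same membrane, LC3B rose while the most abundant member fell. Map1lc3b ranged from 44.4 to 95.0 TPM with a median of 61.7 in CAC livers and was 45.2, 35.5, 44.3, 39.3 and 50.5 TPM in NCAC livers and 37.0, 42.2, 44.2, 39.7 and 45.2 TPM in Con livers. All but 1 of the CAC livers lay above every NCAC and Con liver, and the difference from Con was 0.60 ± 0.13 (limma adjusted p = 0.000221), or 0.85 after rescaling. Gabarapl1 ranged from 128 to 409 TPM with a median of 219 in CAC livers and was 307, 339, 273, 363 and 380 TPM in NCAC livers and 405, 380, 406, 364 and 416 TPM in Con livers. CAC replicate 3, at 409 TPM, lay among the Con livers and the other 6, at 231 TPM or less, lay below every NCAC and Con liver. Gabarapl1 differed from Con by -0.92 ± 0.16 (adjusted p = 1.41e-05), or -0.67 after rescaling (adjusted p = 0.000539). Gabarapl2 (-0.36) and Map1lc3a (-0.48) were lower as deposited only, and Gabarap was not called (-0.19). The Map1lc3a call was lost without CAC replicate 1 or 2 or without Con replicate 2 or 3, its adjusted p then reaching 0.095.

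The cargo receptors, which tether material to the autophagosome, did not move together. Sqstm1, the receptor for ubiquitin-tagged protein, ranged from 90.2 to 184 TPM with a median of 105 in CAC livers and was 173, 160, 187, 152 and 184 TPM in NCAC livers and 218, 235, 231, 189 and 147 TPM in Con livers. CAC replicate 3 was again the highest of its group, at 184 TPM, and the other 6 lay below every NCAC and Con liver. Sqstm1 was lower by -0.81 ± 0.15 (limma adjusted p = 2.31e-05) and by -0.56 after rescaling (adjusted p = 0.00115). Bnip3, a receptor on mitochondria, ranged from 98.2 to 251 TPM with a median of 193 in CAC livers, against 140, 80.2, 145, 126 and 218 TPM in Con livers, and was called only after rescaling (0.40 ± 0.21 as deposited, 0.65 rescaled, adjusted p = 0.0223). Nbr1, a second ubiquitin receptor, was not called on either scale (-0.13).

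Both transcription factors were scarce transcripts. Tfeb ranged from 1.09 to 2.42 TPM with a median of 2.02 in CAC livers and was 3.34, 2.31, 3.21, 2.62 and 3.10 TPM in NCAC livers and 2.28, 3.30, 3.25, 3.14 and 3.01 TPM in Con livers. Except for Con replicate 1 at 2.28 TPM, the Con livers all lay above the CAC livers, and Tfeb was lower by -0.45 ± 0.11 (limma adjusted p = 0.000706). The rescaled difference was -0.28 (adjusted p = 0.0425), and quantile normalization gave -0.29 with an adjusted p of 0.0549. Tfe3 ranged from 3.36 to 6.00 TPM with a median of 4.42 in CAC livers, against 5.13, 5.12, 4.90, 4.94 and 5.00 TPM in Con livers, and was not called (-0.14 ± 0.09).

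Of the lysosomal membrane glycoproteins neither was called as deposited. Lamp1 ranged from 500 to 652 TPM with a median of 526 in CAC livers, against 575, 525, 656, 537 and 568 TPM in Con livers, a difference of -0.05 ± 0.07 (limma adjusted p = 0.579). Lamp2, which also serves chaperone-mediated autophagy, ranged from 85.3 to 112 TPM with a median of 99.8 in CAC livers, against 124, 82.1, 113, 106 and 114 TPM in Con livers (-0.10 ± 0.09, adjusted p = 0.402). The direction of both depended on the scaling. Lamp1 was at 0.20 after median-of-ratios rescaling and -0.22 with the 20 highest genes removed, and Lamp2 at 0.15 and -0.27. Without the pancreatic libraries Lamp2 was at -0.23 (adjusted p = 0.0261). The acid proteases Ctsd and Ctsh turned sign in the same way, with values of 0.07 and -0.35 for Ctsd and of 0.17 and -0.25 for Ctsh.

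The cathepsins, the lysosomal proteases, gave the largest increase among the 39 genes on the 4 scales tried. Ctsl ranged from 858 to 2233 TPM with a median of 1136 in CAC livers and was 591, 573, 1497, 584 and 543 TPM in NCAC livers and 627, 601, 507, 625 and 495 TPM in Con livers. Every CAC liver lay above every Con liver, while 1 NCAC liver, replicate 3 at 1497 TPM, lay inside the CAC range. Against Con the difference was 1.13 ± 0.21 (limma adjusted p = 4.03e-05) and 1.38 after rescaling. Ctsc, cathepsin C, which activates granule proteases of immune cells, ranged from 61.6 to 96.5 TPM with a median of 74.2 in CAC livers and was 30.8, 60.3, 39.2, 42.8 and 53.5 TPM in NCAC livers and 48.4, 39, 38.6, 41.0 and 56.4 TPM in Con livers. All 7 CAC livers lay above both other arms (0.73 ± 0.14 against Con, adjusted p = 5.92e-05, 0.98 after rescaling). Neutrophil markers, listed above, summed higher in the same livers than in both other arms. The Kupffer cell sum was low in both tumour arms, with medians of 382 TPM in CAC, 404 in NCAC and 614 in Con livers. The part of either cell type was not tested.

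Other cathepsins did not follow Ctsl and Ctsc. Ctsb, cathepsin B, ranged from 135 to 286 TPM with a median of 181 in CAC livers, against 233, 236, 248, 235 and 218 TPM in Con livers. It was lower by -0.35 ± 0.11 (limma adjusted p = 0.00876) as deposited, -0.10 after rescaling (adjusted p = 0.45) and 0.02 after quantile normalization. Ctsd, the aspartic protease cathepsin D, ranged from 178 to 322 TPM with a median of 199 in CAC livers, against 216, 285, 265, 231 and 224 TPM in Con livers, and was not called (-0.18 ± 0.10). CAC replicate 3 held the highest value of its group for both. Ctsa and Ctsz were at 0.04 each and Ctsh at -0.08, none of them called as deposited, and Ctsa alone was called after rescaling (0.29, adjusted p = 0.0127).

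Of the remaining hydrolases and the cholesterol exporters, Lipa and Gaa were called lower as deposited, and Lipa also after rescaling. Lipa, the acid lipase that frees cholesterol and fatty acids in the lysosome, ranged from 50.5 to 159 TPM with a median of 92.8 in CAC livers and was 150, 169, 136, 145 and 164 TPM in NCAC livers and 184, 123, 144, 141 and 154 TPM in Con livers. CAC replicate 3 again stood at the top of its group, and of the others only 1, at 126 TPM, reached the Con range. Lipa differed from Con by -0.72 ± 0.19 (limma adjusted p = 0.00221), -0.48 after rescaling (adjusted p = 0.0269) and -0.39 after quantile normalization (adjusted p = 0.0914). Gaa, the acid glucosidase that degrades lysosomal glycogen, ranged from 22.5 to 34.2 TPM with a median of 26.1 in CAC livers, against 31.8, 39.6, 33.9, 32.3 and 30.6 TPM in Con livers. It was lower as deposited (-0.33 ± 0.11, adjusted p = 0.0133) but not after rescaling (-0.08), nor without Con replicate 2 (adjusted p = 0.0556). Hexa, a hexosaminidase subunit, was not called (-0.19). Npc1, the membrane cholesterol exporter, ranged from 9.69 to 28.3 TPM with a median of 18 in CAC livers, against 31.6, 15.8, 29.7, 21.3 and 28.2 TPM in Con livers, and was not called (-0.46 ± 0.22), though it was at -0.73 (adjusted p = 0.0222) without the pancreatic libraries. Its soluble partner Npc2 ranged from 34.2 to 64.2 TPM with a median of 45.9 in CAC livers, against 41.7, 60.1, 45.8, 48.0 and 47.3 TPM in Con livers (-0.12 ± 0.11).

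Exact two-sided permutation tests on the named genes stood beside limma at 8 weeks, 75 tests without adjustment. Many of these genes were chosen by their limma p in the same livers, so a low exact p is no separate support. The tests used values as deposited, and Atg4b, for one, was at -0.08 after rescaling. The smallest exact p that 7 against 5 livers allow, 0.00126, was reached against Con by Atg9a, Wipi2, Atg4b, Atg7 and Ctsc. Ctsl had an exact permutation p of 0.00253, Tfeb 0.00379, Sqstm1 0.00505, Map1lc3b 0.00758, Gabarapl1 0.0101, Lipa 0.0316 and Wipi1 0.0391. For Ctsb the exact permutation p was 0.077, where limma called the gene as deposited. Against NCAC the exact permutation p was 0.0783 for Wipi1 and 0.0694 for Ctsb, both of them called by limma as deposited. In NCAC against Con the exact permutation p was 0.0238 for Gabarapl1 and for Atg14, neither of them called by limma.

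Both the machinery and the hydrolases held genes that went up and genes that went down. Of 23 machinery genes at 8 weeks, 2 were above and 9 below Con in CAC livers, with a median of -0.24, and of 10 hydrolases 2 were higher and 3 lower, with a median of -0.13, where the median of all genes was -0.21 and 5.87% of them were called higher and 35.3% lower. After rescaling the counts were 4 higher and 5 lower with a median of -0.01 for the machinery, and 3 higher and 1 lower with a median of 0.12 for the hydrolases, against 12.8% and 13.9% of all genes. The lower counts of the machinery as deposited are thus near the background. The summed TPM of the 10 hydrolases averaged 2427 ± 421 in CAC livers (SD, n = 7), 1987 ± 449 in NCAC livers and 1785 ± 81.6 in Con livers (n = 5 each). Ctsl made up 53.0% of that sum in CAC livers, 36.5% in NCAC livers and 31.9% in Con livers, and without Ctsl the sums were 1110 ± 210 TPM in CAC, 1229 ± 118 in NCAC and 1214 ± 61.5 in Con. The summed TPM of the machinery, in which Gabarapl1 is the largest item, averaged 1093 ± 170 in CAC livers, 1378 ± 64.1 in NCAC livers and 1376 ± 47.7 in Con livers. These sums are as deposited and weighted to the most abundant genes. No machinery sum without Gabarapl1 or after rescaling is given here, and the rescaled machinery median was -0.01. Of the 10 genes with an E-box in the window, 1 was above and 2 were below Con in CAC livers (median -0.09), or 4 higher and 1 lower after rescaling (median 0.16). Of the 22 with a window and no E-box, 3 were higher and 8 lower (median -0.27), or 3 and 6 after rescaling (median -0.04). The shares of all genes, 5.87% and 35.3% as deposited and 12.8% and 13.9% rescaled, apply to these small counts too.

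The comparison of CAC with NCAC livers, which both carried melanoma cells, ran the same way for the leading genes at 8 weeks. As deposited 4 genes were higher, Ctsl (0.84 ± 0.21), Ctsc (0.73 ± 0.14), Wipi1 (0.60 ± 0.19) and Map1lc3b (0.56 ± 0.13), and 21 were lower, against 5.09% and 43.1% of all genes and a median of all genes of -0.26. After rescaling 11 were higher and 5 lower, against 12.3% and 13% of all genes. The 5 lower on both scales were Atg9a (-0.67, rescaled -0.37), Wipi2 (-0.57, rescaled -0.28), Atg7 (-0.69, rescaled -0.42), Lipa (-0.77, rescaled -0.46) and Npc1 (-0.88, rescaled -0.58). Gabarapl1 (-0.66 ± 0.16) and Sqstm1 (-0.58 ± 0.15) were lower as deposited, with rescaled values of -0.36 (limma adjusted p = 0.0726) and -0.27 (adjusted p = 0.136). Becn1 changed sides, from called lower (-0.16) to called higher (0.13) on rescaling. Without any 1 library 22 of the 25 calls were kept. Leaving out a liver moved Ctsl between 0.70 and 1.12. This comparison shares its CAC livers with the one against Con.

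In NCAC livers limma, fitted over all 62 livers, called 0 of the 39 genes against Con at 2, 4, 6 and 8 weeks, with 7, 2, 1 and 2 genes at an unadjusted p under 0.05. The share of all genes called, at an adjusted p under 0.05, was 0% at 2, 4 and 6 weeks and 0.181% at 8 weeks. The share of all genes at an unadjusted p under 0.05 is not given here, so nothing is read from the unadjusted counts. At 8 weeks the widest differences were Bnip3 at 0.53 ± 0.23 (adjusted p = 0.378) and Npc1 at 0.42 ± 0.24 (adjusted p = 0.519). A fit within each week called 1 gene higher and 2 lower in NCAC than in Con at 2 weeks. The share of all genes in that fit is not given here, so whether these counts exceed it is not known. At that week Sqstm1 was at 127 to 164 TPM in NCAC and 188 to 208 TPM in Con livers. Gabarapl2 was at 33.5 to 40.2 TPM in NCAC and 26.2 to 33.3 TPM in Con livers. At 8 weeks Ctsl was at 0.29 ± 0.23 (adjusted p = 0.645), with replicate 3 far above the other NCAC livers. A missed threshold in 5 against 5 livers does not show that the arms were alike.

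Calls in CAC livers against Con numbered 0, 1, 7 and 17 at 2, 4, 6 and 8 weeks, with 0, 1, 6 and 4 of them higher. The growth between 6 and 8 weeks lay in the lower calls, alongside those of all genes. Of all genes 5% were higher and 10.3% lower at 6 weeks, and 5.87% and 35.3% at 8 weeks. CAC had 7 livers at 8 weeks and 5 at 6 weeks, so the counts of the 2 weeks also differ in the number of livers behind them. At 2 weeks limma called none of the 39 genes in CAC against Con (4 at an unadjusted p under 0.05, 0.00822% of all genes called) or in CAC against NCAC (4 at an unadjusted p under 0.05, 0% of all genes called). These shares are at an adjusted p, and no share of all genes stands here beside the unadjusted counts. At 4 weeks Ctsc was the gene called higher, at 58.3, 57.1, 54.2, 61.2 and 68.5 TPM in CAC livers, 37.9, 43.5, 39.1, 26.7 and 42.9 TPM in NCAC livers and 46.5, 42.4, 33.3, 40.8 and 26.3 TPM in Con livers. The CAC livers did not overlap either other arm. Ctsc was at 0.67 ± 0.15 against Con (adjusted p = 0.00635), though at an adjusted p of 0.0641 without Con replicate 5, and at 0.66 against NCAC (adjusted p = 0.0106), a call lost without NCAC replicate 4. A fit within each week, for which no share of all genes is given here, called 0 genes higher in CAC against either arm at 4 weeks. It called 1 higher than Con at 2 weeks. In the fit over all 62 livers 1.3% of all genes were higher and 0.609% lower than in Con at 4 weeks, and 1.11% and 0.156% than in NCAC.

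**Figure D2:**
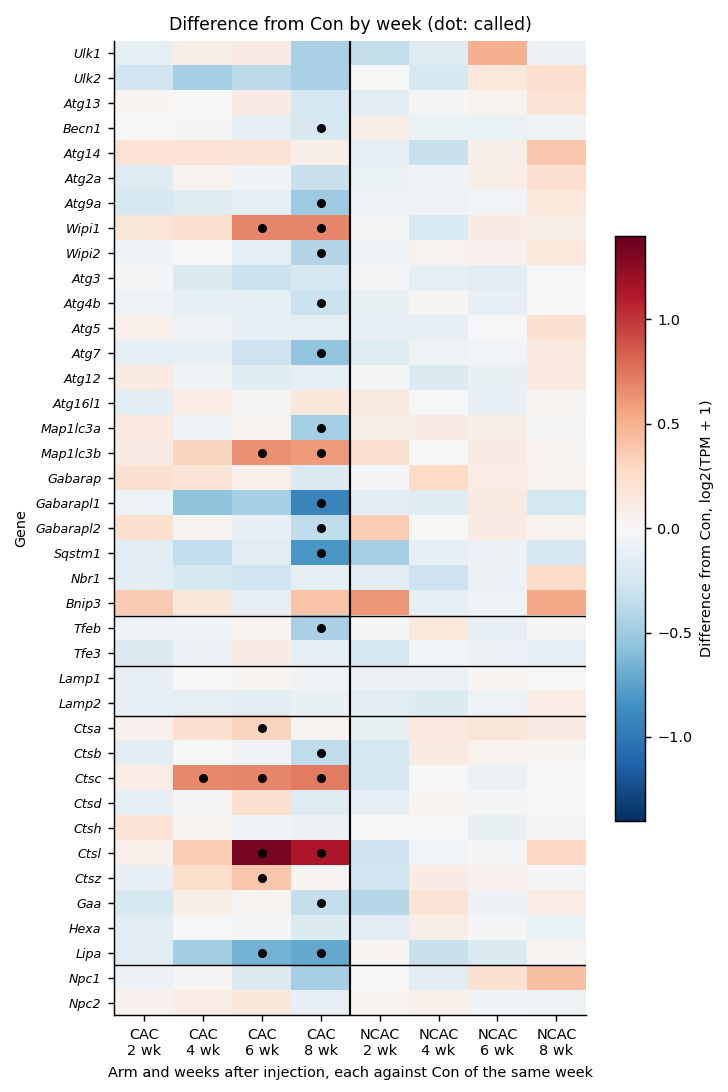
Difference from Con of the same week for the 39 genes (rows, ordered by role, with lines between classes) in CAC and NCAC livers at 2, 4, 6 and 8 weeks (columns), as log2(TPM + 1) in colour, red for higher and blue for lower, with a dot where limma called the gene. The CAC columns fill with dots at 6 and 8 weeks (7 and 17 genes) and the NCAC columns hold none.

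At 6 weeks 6 genes were higher in CAC than in Con and 1 was lower. Ctsl was at 1508, 1534, 960, 2088 and 1218 TPM in CAC livers, 469, 606, 529, 497 and 686 TPM in NCAC livers and 873, 504, 462, 607 and 452 TPM in Con livers, with no overlap (1.33 ± 0.23 against Con, limma adjusted p = 3.62e-05). Map1lc3b was at 73.5, 64.6, 39.1, 63.4 and 50.9 TPM in CAC livers, against 32.1, 36.9, 32.5, 39.2 and 41.5 TPM in Con livers. All but 1 of the CAC livers were above Con (0.64 ± 0.14, adjusted p = 0.000919). Lipa was at 73.4, 120, 149, 96.7 and 119 TPM in CAC livers, against 159, 178, 159, 181 and 187 TPM in Con livers, with no overlap (-0.66 ± 0.21, adjusted p = 0.0242). The other calls were Ctsc (0.68 ± 0.15), Wipi1 (0.68 ± 0.20), Ctsz (0.39 ± 0.13) and Ctsa (0.31 ± 0.10).

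All 7 genes called at 6 weeks were also called after rescaling, when Ctsd and Tfe3 joined them for 8 higher and 1 lower. The shares of all genes were 5% higher and 10.3% lower as deposited and 8.5% higher and 5.82% lower after rescaling. Map1lc3b, Ctsc and Ctsl kept their call when any 1 library was left out. Without CAC replicate 1, or without CAC replicate 4, just 3 genes were higher and 0 lower, while Lipa also lost its call without Con replicate 5. Without the pancreatic libraries 4 genes were higher and 0 lower by limma. The shares of all genes above belong to the fits with every library, and those of the fits with libraries left out are not given here. At the same week 3 genes were higher in CAC than in NCAC, Ctsl (1.35), Ctsc (0.76) and Map1lc3b (0.53), and Gabarapl1 was lower (-0.60), against 6.55% and 5.54% of all genes. Of 10 hydrolases 4 were higher and 1 lower than in Con at 6 weeks, and of 23 machinery genes 2 were higher and 0 lower, the medians being 0.13 and -0.12 and that of all genes -0.12.

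**Figure D3:**
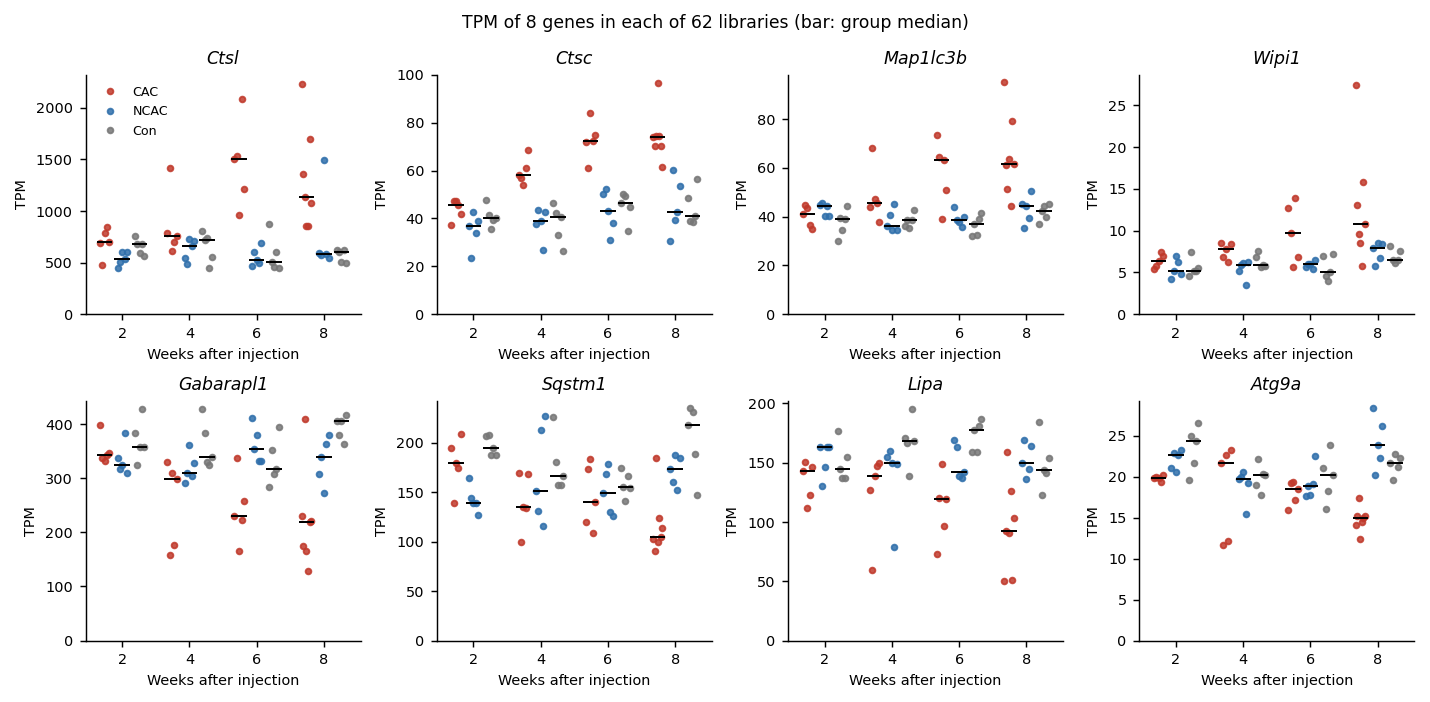
TPM of 8 genes (y axes, from 0) in each of the 62 livers by weeks after injection (x axes), with CAC, NCAC and Con from left to right at each week and a bar at each group median. Ctsl and Ctsc stand above both other arms in CAC livers from 6 and 4 weeks, except for the NCAC liver with 1497 TPM of Ctsl at 8 weeks, and Gabarapl1, Sqstm1, Lipa and Atg9a reach their lowest CAC medians at 8 weeks.

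Whether the difference from Con itself moved between 2 and 8 weeks was tested as an interaction. In CAC livers 2 genes moved up, Ctsl by 1.06 ± 0.32 (limma adjusted p = 0.0165) and Ctsc by 0.63 ± 0.21 (adjusted p = 0.0336), and 5 moved down, Gabarapl1 (-0.85 ± 0.24, adjusted p = 0.0116), Sqstm1 (-0.66), Gabarapl2 (-0.58), Gabarap (-0.40) and Ctsh (-0.27). Part of the change of Gabarap, Ctsh and Gabarapl2 lay at 2 weeks. At that week Gabarap was at 176 to 191 TPM in CAC and 154 to 161 TPM in Con livers. Ctsh was at 120 to 142 and 108 to 123 TPM, and Gabarapl2 at 29.3 to 38.5 and 26.2 to 33.3 TPM. At 8 weeks itself Gabarap (-0.19) and Ctsh (-0.08) were not called. Of all genes tested 3.12% moved up and 12.2% down. Ctsl, Gabarapl1 and Gabarapl2 kept their call when any 1 library was left out, but with a replicate block 0 genes moved up and 2 moved down. Without CAC 8-week replicate 3 the genes moving down numbered 10. After rescaling Ctsl (1.23), Ctsc (0.79) and Map1lc3b (0.66) moved up and Gabarapl1 moved down (-0.68, adjusted p = 0.0374), against 5.3% and 5.3% of all genes. Without the pancreatic libraries 1 gene moved up and 2 moved down. The shares of all genes in the fits with a replicate block or with libraries left out are not given here. In NCAC livers limma called 0 of the 39 genes at an adjusted p under 0.05, against 0.00822% of all genes. The 2 genes at an unadjusted p under 0.05 have no matching share of all genes here.

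Ratios of TPM between genes of the same library do not depend on the scaling. The 4 pairs were chosen after their values were seen and are described with no test. Map1lc3b over Gabarapl1 ranged from 0.126 to 0.411 with a median of 0.350 in CAC livers at 8 weeks, against medians of 0.133 in NCAC and 0.109 in Con livers. It lay above the highest of all 40 NCAC and Con livers (0.162) in 6 of 7 CAC livers at 8 weeks, 5 of 5 at 6 weeks and 2 of 5 at 4 weeks. Wipi1 over Wipi2 had a median of 0.809 in CAC livers, 0.387 in NCAC livers and 0.411 in Con livers at 8 weeks, and 7 of 7 CAC livers exceeded the highest of the 40 others (0.47). Ctsc over Lipa, with medians of 0.758 in CAC, 0.294 in NCAC and 0.290 in Con, exceeded the highest of the 40 others (0.368) in 7 of 7 CAC livers at 8 weeks in 5 of 5 at both 6 and 4 weeks, and in 2 of 5 at 2 weeks. Ctsl over Ctsb, with medians of 5.77 in CAC, 2.50 in NCAC and 2.55 in Con, was above all Con livers of its week in 7 of 7 CAC livers, but above the highest NCAC liver (6.97) in 3 of 7. A ratio shows unequal change of its genes and not which of them moved.

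**Figure D4:**
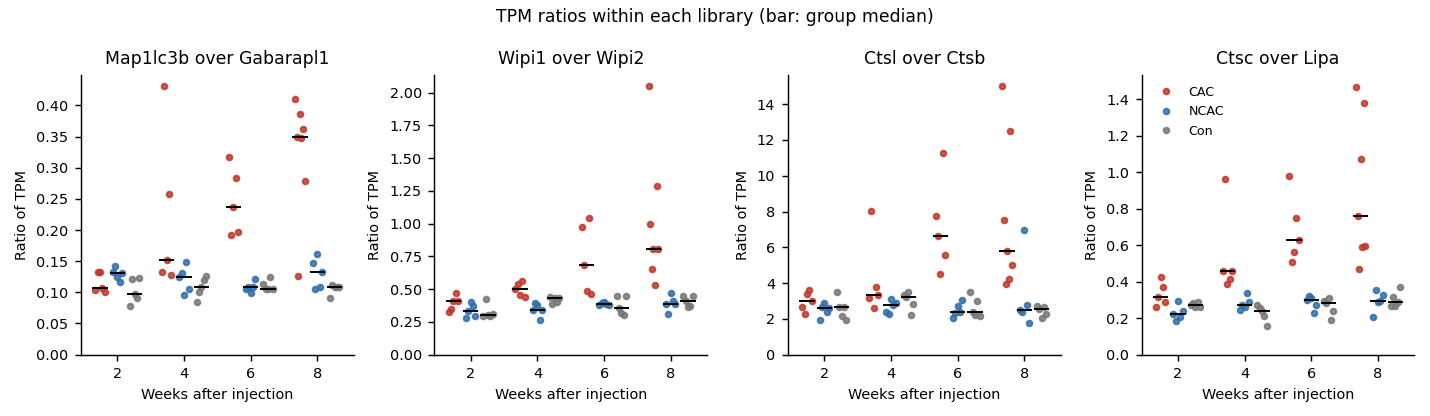
Ratio of TPM of 4 gene pairs within each of the 62 libraries (y axes, from 0) by weeks after injection (x axes), with CAC, NCAC and Con from left to right at each week and a bar at each group median. The Con medians lie between 0.0972 and 0.109 for Map1lc3b over Gabarapl1, while the CAC median reaches 0.350 at 8 weeks.

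Further genes of the pathway also went both ways at 8 weeks, when 5.87% of all genes were called higher and 35.3% lower as deposited, and 12.8% and 13.9% after rescaling. Of 27 further autophagy genes 3 were above and 10 below Con in CAC livers (5 and 3 after rescaling), a lower count near the background. They included Wdr45, a phosphoinositide-binding relative of the WIPI genes, at 13.0 ± 3.82 TPM in CAC and 20 ± 2.31 TPM in Con livers (SD, n = 7 and 5), a difference of -0.62 ± 0.13. Atg10, the E2-like enzyme for ATG12, was at -0.57 ± 0.14, and Rubcn, an inhibitor of autophagosome maturation, at -0.42 ± 0.11. Of 8 mitophagy and lipophagy genes 0 were higher by limma and 5 lower (0 and 1 after rescaling), led by Plin2, a coat protein of lipid droplets, at 77.5 ± 68.2 TPM in CAC and 229 ± 70.5 TPM in Con livers (-1.88 ± 0.32, adjusted p = 8.68e-06). The mitophagy kinase Pink1 was at -0.50 ± 0.11 and the mitophagy receptor Phb2 at -0.39 ± 0.09, neither of them called after rescaling.

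Of 29 further lysosomal hydrolases and their activators 1 was higher and 3 were lower as deposited, and 11 were higher and 1 lower after rescaling, against 5.87% and 35.3% of all genes as deposited and 12.8% and 13.9% after rescaling. Gm2a, the ganglioside activator, averaged 26.4 ± 10.1 TPM in CAC and 43.4 ± 2.43 TPM in Con livers (-0.76 ± 0.13, limma adjusted p = 4.73e-06, rescaled -0.52). Cathepsin O (Ctso) was higher, at 41.2 ± 9.37 TPM in CAC and 29.4 ± 3.82 TPM in Con livers (0.46 ± 0.12, rescaled 0.70), and the sphingolipid activator Psap was at -0.46 ± 0.10, with its call lost on rescaling (-0.21, adjusted p = 0.0906). Of 17 membrane and transport genes 8 were lower as deposited and 3 after rescaling, with Cln3 at -0.55 ± 0.12 and Laptm4b at -0.39 ± 0.09.

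Of 15 subunits of the v-ATPase, the proton pump that acidifies the lysosome, 0 were higher by limma and 9 lower as deposited, and 1 was higher and 0 lower after rescaling, where all genes gave 5.87% and 35.3% as deposited and 12.8% and 13.9% rescaled. The 3 with the smallest p, Atp6v0d1 (-0.32, rescaled -0.07), Atp6v1h (-0.29, rescaled -0.07) and Atp6v0b (-0.39, rescaled -0.15), lost their call on rescaling. In the mTORC1 and nutrient-sensing list, which restrains autophagy when amino acids abound, 3 of 27 were higher and 9 lower (4 and 3 after rescaling), the lower count again near the background. Ddit4, a stress-induced inhibitor of mTORC1, averaged 37.0 ± 40.6 TPM in CAC and 4.14 ± 1.18 TPM in Con livers (2.20 ± 0.45, limma adjusted p = 0.000125, rescaled 2.43). The mTORC1 subunits Rptor (-0.56 ± 0.13, rescaled -0.36) and Akt1s1 (-0.59 ± 0.11, rescaled -0.35) were lower on both scales.

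The precision of these values is set by the number of livers, as no read counts were at hand. The p-values measure the spread between libraries, each taken as 1 animal. Leaving out each 8-week liver in turn kept 15 of the 17 calls of CAC against Con, the exceptions being Map1lc3a and Gaa as given above. Becn1, Atg9a, Atg4b, Map1lc3b, Sqstm1, Lamp1, Ctsa, Ctsb, Ctsd, Ctsz, Hexa and Npc1 overlap another coding gene in the annotation, and how reads of overlapping genes were assigned is not given in the sources used here.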

How the data were processed

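Total liver RNA of 62 mice was sequenced with a stranded mRNA kit, per the labels' protocols. The authors deposited 1 table of TPM, which was checked to sum to 1e+06 in each library. The genome build is mm10, per the submitters' processing notes. For the aligner, quantifier, strand setting and depth, nothing is stated in the labels, and no count model was used. Columns were matched to groups by name (0 unmapped).

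The 12160 genes reaching 1 TPM in 5 or more of the libraries were fitted as log2(TPM + 1) in limma 3.58.1 (R 4.3.3), using 12 group means and trended empirical Bayes moderation, tested on simulated data. Adjusted p-values are Benjamini-Hochberg over all genes tested, within a comparison, and genes were called under 0.05. TPM are shares of a fixed total, so differences after median-of-ratios rescaling are given beside them. The 95% intervals were computed from the limma standard errors by a normal approximation. Exact two-sided permutation tests compared group means of log2(TPM + 1). Values at 8 weeks are given for the 2 genes of each role with the smallest p in CAC against Con. They are also given for Sqstm1, Map1lc3b, Ulk1, Tfeb, Ctsb, Ctsd, Ctsl and Lamp1. CAC livers are given by range and median, Con livers singly, and NCAC livers singly for some of the genes. Of other lists the 3 genes with the smallest p are named. A result of the membrane and transport list is not reported here. Wipi1, the ratio pairs and the earlier weeks' values were added after the values were seen. Genes and lists were chosen with earlier results of these data known. Alternatives tried were quantile normalization, removal of the 20 highest genes, a pseudocount of 0.1, a minimum mean of 5 TPM or no minimum, a robust fit, separate fits by week, a replicate block, and leaving out libraries singly or those with other tissues' transcripts. Figures used matplotlib 3.10.9.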

Additional observations from a re-analysis of the deposited data

Results flagged for a closer look

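In 75 groups of 5 or 7 livers of the named genes at 8 weeks, a single liver stood far from the rest in 7. Chance gives about 1 in 20 independent groups. The groups here share the same livers, and CAC replicate 3 recurs among the 7, so no excess over chance can be read from this count. CAC replicate 3 stood above the other CAC livers for Gabarapl1 (409 TPM, the others 128 to 231), Sqstm1 (184 TPM, the others 90.2 to 124), Ctsd (322 TPM, the others 178 to 220) and Npc2 (64.2 TPM, the others 34.2 to 47). CAC replicate 4 stood above the others for Ctsc (96.5 TPM, the others 61.6 to 74.5). NCAC replicate 3 stood above the other NCAC livers for Ctsl (1497 TPM, the others 543 to 591). Con replicate 1 stood below the other Con livers for Tfeb (2.28 TPM, the others 3.01 to 3.30).

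The difference of CAC from Con changed between 2 and 8 weeks, by a limma test of the change itself (adjusted p under 0.05), for Ctsl (1.06), Ctsc (0.63), Gabarapl1 (-0.85), Sqstm1 (-0.66), Gabarapl2 (-0.58), Gabarap (-0.40) and Ctsh (-0.27), all on the log2(TPM + 1) scale as deposited. Of all genes 3.12% moved up and 12.2% down as deposited. After rescaling the genes that moved down numbered 1 (Gabarapl1), against 5.3% of all genes. With a replicate block 0 moved up and 2 down, in a fit whose share of all genes is not given here. Of 22 fits with a liver left out, Gabarap and Ctsh each lost their call in 12, and Sqstm1 and Ctsc each in 7. Gabarap and Ctsh were not called at 8 weeks itself, and part of their change lay at 2 weeks, as given above.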

How the results depend on the processing

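Counts of called genes and class medians depended mostly on the scaling. Shares of all genes are not given here for fits within each week, with libraries left out, or with another filter or a block. The cause of each change was not tested, apart from the smaller number of libraries where some were left out.

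After median-of-ratios rescaling, CAC against Con at 8 weeks gave 8 higher and 7 lower with medians of -0.01 (machinery) and 0.12 (hydrolases), and CAC against NCAC gave 11 higher and 5 lower with -0.07 and 0.21. At 6 weeks 5 were higher in CAC than in NCAC, against 941 of all 12160 genes. The hydrolase median of NCAC against Con was 0.06 at that week. The 8-less-2-week change had 1 lower in CAC with medians of -0.08 and 0.13, and the hydrolase median in NCAC was 0.11. Quantile normalization gave 12 higher and 5 lower against Con at 8 weeks (medians 0.00 and 0.25), 13 and 4 against NCAC (-0.04 and 0.28), 9 higher against NCAC at 6 weeks, 2 higher against Con at 4 weeks, and 6 and 0 for the 8-less-2-week change (-0.04 and 0.29). Of all 12160 genes, 1782 were then higher and 1633 lower than Con at 8 weeks, and 1703 and 1611 than NCAC. In the same fit 1042 were higher than NCAC at 6 weeks and 212 higher than Con at 4 weeks. For the 8-less-2-week change 742 of all genes moved up and 543 down. With the 20 highest genes removed, 29 were lower than Con at 8 weeks (machinery median -0.41), 12 lower than Con and 9 lower than NCAC at 6 weeks (hydrolase medians -0.02 and -0.04, machinery -0.24 against NCAC), 1 lower than Con and 0 higher than NCAC at 4 weeks, and 1 moved up and 13 down for the 8-less-2-week change (-0.39 and -0.20). Of all 12140 genes in that fit, 494 were higher and 6771 lower than Con at 8 weeks (median -0.37). At 6 weeks 4043 of them were lower than Con and 2146 lower than NCAC. At 4 weeks 247 were lower than Con and 103 higher than NCAC. For the 8-less-2-week change 293 moved up and 3195 down.

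Signs of single genes at 8 weeks turned for Becn1 (0.02 rescaled, 0.01 quantile), Tfe3 (0.06, 0.04), Lamp1 (0.20, 0.16), Lamp2 (0.15, 0.28), Ctsd (0.07, 0.20) and Npc2 (0.13, 0.20), for Ctsb by quantile normalization (0.02), and for Atg14 with the 20 highest genes removed (-0.07) or without the pancreatic libraries (-0.07, also with muscle libraries left out).

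A fit within each week called 1 gene higher and 2 lower in NCAC than in Con at 2 weeks, 1 higher in CAC than in Con, 1 higher and 1 lower in CAC than in NCAC, 0 higher in CAC against either arm at 4 weeks, and 3 lower against each at 6 weeks. A filter at a mean of 5 TPM gave 2 lower than Con at 6 weeks, and no filter gave 1 higher for the 8-less-2-week change. Without the pancreatic libraries, with or without the muscle libraries, 0 were higher than NCAC at 4 weeks, 0 lower than Con or NCAC at 6 weeks, and the 8-less-2-week change had 1 up and 2 down (1 down with muscle libraries left out too).

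Correlations of same-numbered livers between arms ran from -0.37 to 0.36. Livers of different numbers were not compared, so whether the replicate numbers pair the livers cannot be told. With a replicate block 2 genes were lower than Con at 6 weeks and the 8-less-2-week change had 0 up and 2 down.

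With each liver left out in turn, CAC against Con had 0 to 1 higher and 0 to 1 lower at 4 weeks, 3 to 6 higher and 0 to 3 lower at 6 weeks, and 4 to 5 higher and 12 to 19 lower at 8 weeks. CAC against NCAC had 0 to 1 higher at 4 weeks, 3 to 4 higher and 0 to 2 lower at 6 weeks, and 4 higher and 19 to 23 lower at 8 weeks. The 8-less-2-week change had 1 to 3 up and 2 to 10 down. Hydrolase medians ran from 0.02 to 0.12 at 4 weeks and from -0.19 to -0.09 at 8 weeks against Con, from -0.21 to -0.10 for NCAC against Con at 2 weeks, and from 0.12 to 0.26 for its 8-less-2-week change, and Atg14 ran from -0.03 to 0.17 and Lamp1 from -0.09 to 0.00 at 8 weeks. Without read counts, scarce transcripts such as Tfeb carry an unknown counting error.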
